A study of Mus musculus with 9 samples.

Results

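The genes that move zinc, iron and copper across membranes and store them were examined in the mammary gland of nursing mice. They were picked by gene name, as every gene on the array named as a member of the Slc30, Slc39, Slc31 or Slc11 families, with Slc40a1, the metallothioneins Mt1 to Mt4, Mtf1, Fth1, Ftl1, Tfrc, Atp7a, Atp7b, Cp, Heph and Hfe. This gave 42 genes of the 27962 gene names on the array, read by 65 of its 41174 probes. They comprised 10 zinc exporters, 14 zinc importers, 5 genes of the metallothioneins and their regulator, 9 iron genes and 4 copper genes. Gene expression was measured in mammary gland number 4 of WT dams (n = 4) and hNAG-1 dams (n = 5) on lactation day 2 (L2), on Agilent arrays that hold 1 labelled sample each. The hNAG-1 mice carry a transgene for human NAG-1, a secreted member of the TGFβ family also called GDF15, which was built to be expressed throughout the body. The study asked how this transgene alters the lactating gland.

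Both groups carry the same background, which the labels spell C57BL/7, and neither was given an agent. The labels give age only as the day of lactation. The methods place gland collection after the dams' 4th litter and describe each gland as pulverised on its own, so that each array was taken as 1 dam. The study worked mainly with 1 transgenic line and in some experiments combined it with another, and the labels do not say which line each dam came from. Because the transgene is human and the array carries mouse probes, the genotypes were taken from the labels.

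A lactating gland passes zinc, iron and copper into milk, since the newborn depends on milk for all of them. Zinc leaves the cytosol through the ZnT proteins encoded by Slc30 genes and enters it through the ZIP proteins encoded by Slc39 genes, and a mutation of Slc30a4 (ZnT4) in the lethal milk mouse leaves pups short of zinc. Metallothioneins bind zinc and copper in the cytosol, and their genes are switched on by MTF-1, a zinc-sensing transcription factor that recognises a short DNA motif. Iron enters cells bound to transferrin through the transferrin receptor (Tfrc), is stored in ferritin (Fth1 and Ftl1) and leaves through ferroportin (Slc40a1), the only iron exporter known in mammals. Copper enters through Ctr1 (Slc31a1) and is loaded into the secretory pathway by the pumps Atp7a and Atp7b.

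The promoters of Mt1, Mt2 and Slc30a1 are shown because these genes are the classical targets through which MTF-1 responds to zinc, so their transcripts are where a change in zinc supply is usually read. Each line gives the 250 bases before the RefSeq start site on build GRCm38.p6, 5′ to 3′ on the strand of the gene. Capitals mark the metal response element core, spelled TGCACNC or TGCGCNC, on either strand, where N is any base. All 3 genes lie on the plus strand.
Mt1, chr8:94178839-94179088: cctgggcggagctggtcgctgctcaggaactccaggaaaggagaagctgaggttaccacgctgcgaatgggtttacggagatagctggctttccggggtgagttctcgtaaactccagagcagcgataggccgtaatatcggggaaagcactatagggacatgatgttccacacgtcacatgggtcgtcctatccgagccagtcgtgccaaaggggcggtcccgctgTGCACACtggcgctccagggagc
Mt2, chr8:94172368-94172617: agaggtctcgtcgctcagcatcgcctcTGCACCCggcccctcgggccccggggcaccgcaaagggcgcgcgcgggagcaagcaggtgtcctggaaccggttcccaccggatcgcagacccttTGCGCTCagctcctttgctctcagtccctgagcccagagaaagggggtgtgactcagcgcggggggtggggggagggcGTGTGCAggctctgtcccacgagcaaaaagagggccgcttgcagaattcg
Slc30a1, chr1:191906531-191906780: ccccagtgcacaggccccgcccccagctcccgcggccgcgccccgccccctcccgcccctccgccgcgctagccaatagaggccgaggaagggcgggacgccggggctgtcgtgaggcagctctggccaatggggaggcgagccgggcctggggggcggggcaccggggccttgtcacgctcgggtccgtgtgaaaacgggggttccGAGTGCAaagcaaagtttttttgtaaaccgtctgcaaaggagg

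Over the whole RefSeq promoter of 300 bases, which adds 50 bases after the start site, the core occurred 3 times for Mt1, 4 times for Mt2 and 2 times for Slc30a1, overlapping matches counted. Of all 32851 RefSeq promoters, 25.7% held the core at least once and 1.97% held it at least 3 times. RefSeq promoters were found for 35 of the 42 genes, 43 promoters in all, and 20 of these 43 (46.5%) held the core. Slc30a4 and Slc30a10 had 3 cores each, Slc30a2, Tfrc and Atp7a had 2 each in 1 of their promoters, and neither Fth1, Ftl1, Mtf1 nor Slc31a1 had any. A match of these letters is a description of the sequence and not a binding site.

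The values below are scaled intensities, that is the brightness of a probe once the 75th percentiles of the 9 arrays had been made equal, and they have no meaning between different probes. Before scaling that percentile ran from 533 to 1185 over the 9 arrays, and the share of spots well above their local background was 69.0% to 76.1% in the WT mice, 69.7% and 73.3% in hNAG-1 1 and 5, and 59.8% to 64.6% in hNAG-1 2, 3 and 4. The part of this share in the results was not tested. The arrays lay on 3 slides, and the genotypes were split unevenly over them. Mice hNAG-1 1 to 4 shared slide 2, mice WT 2 to 4 and hNAG-1 5 shared slide 3, and WT 1 was on slide 1. A comparison within a slide therefore sets the single mouse hNAG-1 5 against the 3 WT mice of slide 3. WT 1 and WT 2 stood apart in their cell markers. In the mean log2 deviation from the average of the 9 mice over 8 adipocyte markers, WT 1 stood at -1.14 and the other mice between -0.26 and 0.42, and Adipoq read 9502 in WT 1 against 29452 to 35877 in the others. By the same mean deviation over 10 lymphocyte markers, WT 2 stood at 2.96 and the other WT mice between -0.77 and 0.88. The hNAG-1 mice stood between -1.30 and 0.70. Over 8 secretory epithelium markers WT 2 was the lowest of the 9 mice, at -0.50, with the others between -0.04 and 0.30. Between the genotypes, the 10 lymphocyte markers were all lower in hNAG-1 mice (median log2 difference -1.20), and the 8 adipocyte markers and 5 myoepithelium markers were all higher (medians 0.35 and 0.35). Over the lymphocyte markers WT 3 and WT 4 (-0.50 and -0.77) lay inside the hNAG-1 range, as they did over the adipocyte markers (0.11 and 0.42). Over the myoepithelium markers WT 2 was lowest, at -0.78, with the other mice between -0.21 and 0.35. By the brightest probe of each, 1 gene of these 3 lists had an unadjusted limma p under 0.05, where 5.75% of all detected probes did. It was the smooth muscle myosin gene Myh11, with a log2 difference of 0.48 (exact permutation p = 0.0238, adjusted p = 0.661 by limma). With slide as a block the 3 medians were -0.87, 0.14 and 0.21, and the part of these cells in the results was not tested. The defining markers of the lactating gland, the caseins Csn1s1, Csn2 and Csn3, Wap and Lalba, were well above background in all 9 mice. In whole tissue, fewer cells of a type and less RNA per cell cannot be told apart.

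No gene of metal handling passed a test corrected over the array. Of the 65 probes, 53 were well above background in all 9 mice, 6 in some mice only, and 6 in none, and no probe was saturated. The 53 probes covered 37 of the 42 genes. Slc30a3, Slc30a8 and Slc39a12 were not well above background in any mouse, and Slc30a10 and Slc39a5 were so in some mice only. The adjusted p (limma with Benjamini-Hochberg adjustment over all probes) was at least 0.661 for each of the 65 probes, and 0.00243% of all probes on the array passed 0.05. At an unadjusted p under 0.05 in the same limma fit, 2 of 65 probes (3.08%) were called, both lower in hNAG-1 mice, beside 4.45% of all probes called lower and 1.15% called higher. The methods of the study also asked for a 1.5-fold difference and for 65 or more intensity units on 1 of the arrays, and with these criteria 1 of the 65 probes was called, the Slc40a1 probe, beside 1.97% of all probes lower and 0.313% higher. None of the 65 probes separated the genotypes without overlap, which 1.35% of all probes did.

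What the arrays could resolve differed by gene. For the 53 detected probes, the 95% confidence interval of the log2 difference extended 0.34 to 1.26 on either side of the estimate, with a median of 0.48. For 41 of the 53 probes the whole interval lay within a change of 1 log2 unit, that is a factor of 2, in either direction, and 48 had an estimate under 0.5 in size.

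**Figure D1:**
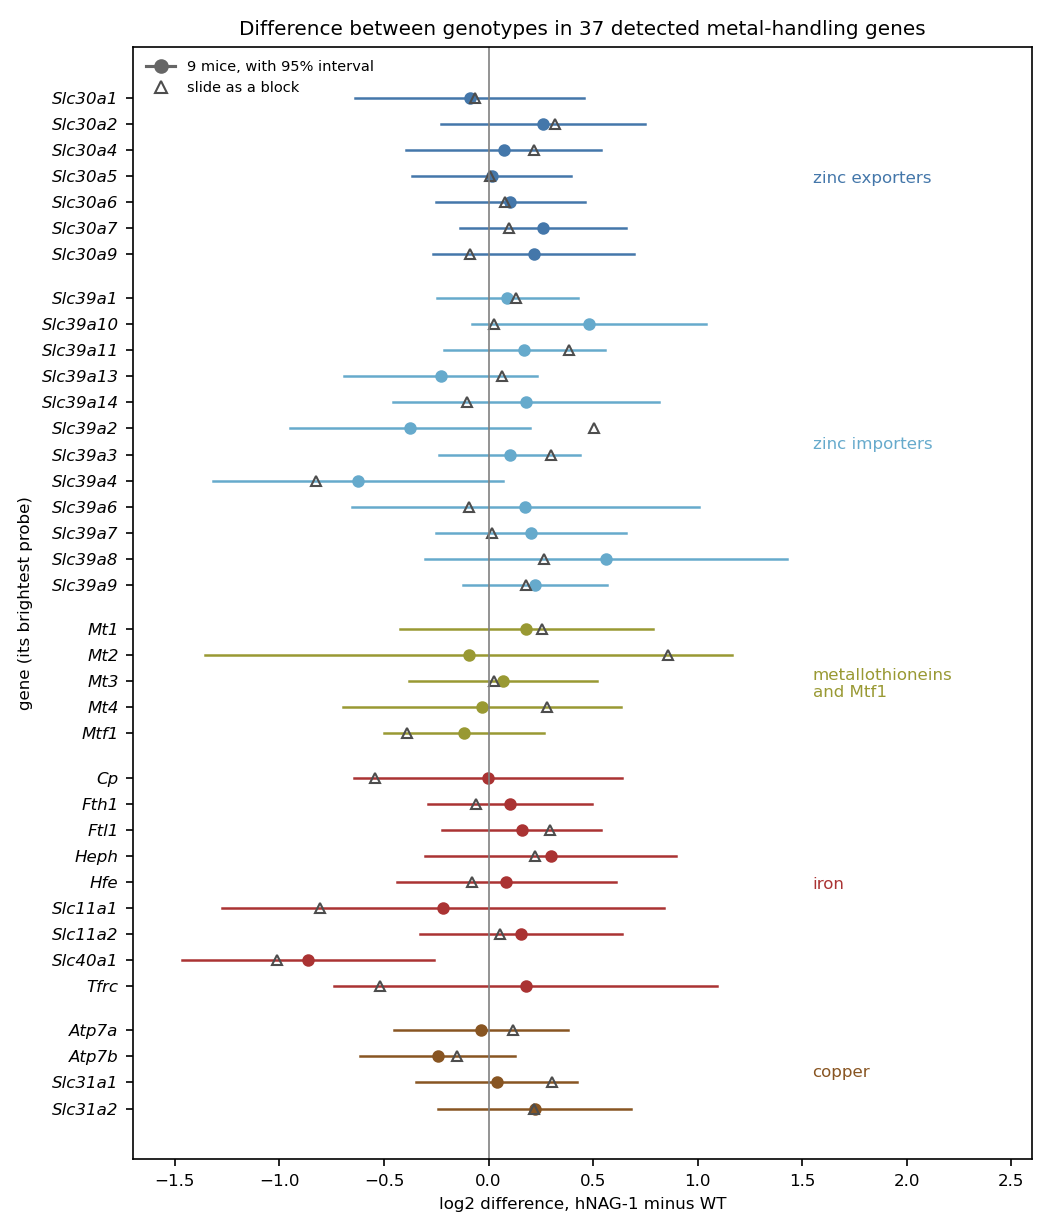
Log2 difference in intensity (hNAG-1 minus WT, x axis) for the 37 detected genes (y axis), each by its brightest probe, grouped by list and coloured by list. Circles with lines are the estimate over 9 mice with its 95% confidence interval and open triangles the estimate with slide as a block, and the interval of Slc40a1 (-1.46 to -0.26) is the only one that leaves out 0.

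Slc40a1, the gene for the iron exporter ferroportin, was lower in the hNAG-1 mice by an unadjusted test. Its single probe (A_51_P389988, chr1:46145061-46145120 on mm7, the build in the file headers) read 509, 878, 1041 and 1231 in WT 1 to 4. In hNAG-1 1 to 5 it read 517, 400.5, 605, 388 and 515. WT 2, 3 and 4 lay above every hNAG-1 mouse, and WT 1 lay inside the hNAG-1 range. The means were 914 ± 307 (SD, n = 4) and 485 ± 90.7 (SD, n = 5). The log2 difference was -0.86 ± 0.27 (SE), a level 1.82-fold lower, with an unadjusted limma p of 0.00992 and an adjusted p of 0.661. The exact permutation test, over every way to split the 9 mice into 4 and 5, gave a two-sided p of 0.0317, where the smallest it can give is 0.00794. With median scaling this p was 0.0794, without scaling 0.0635, and in 8 of the 9 runs that left out 1 mouse it was 0.0714 to 0.114, the exception being the run without WT 1. With slide as a block the log2 difference was -1.01, which rests on hNAG-1 5 at 515 against 878 to 1231 in the WT mice of its slide. Leaving out each mouse in turn gave -1.12 to -0.70, the first without WT 1.

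Ferroportin is abundant in macrophages that recycle iron, so the 11 macrophage markers were read beside it. By the mean log2 deviation over the 11, WT mice stood between -0.66 and 0.73 and hNAG-1 mice between -0.54 and 1.03, ranges that overlapped. All 11 were detected in at least 1 genotype in full, 4 were higher and 7 lower in hNAG-1 mice, none at an unadjusted p under 0.05, and their median log2 difference was -0.10. With slide as a block, the fit in which Slc40a1 differed by -1.01, 10 of the 11 were lower and the median was -0.38. Over the 9 mice Cd68, a lysosomal protein of macrophages, differed by 0.00, Csf1r, the receptor for the macrophage growth factor, by -0.10, and Cd163, the haemoglobin scavenger receptor, by -0.23. The 11 differences ran from -1.46 for Timd4 (-1.89 with slide as a block) to 0.22 for Emr1. Timd4 read 1693 in WT 2 and 28.4 to 293 in the other mice. WT 1, the WT mouse with the lowest Slc40a1, had the lowest value of the 9 mice for 8 of the 11 markers, among them Cd68 (224), Csf1r (970) and Mrc1 (369). The mouse with the lowest Slc40a1 of all, hNAG-1 4, had the highest value for 5 of the 11, among them Emr1 (10504) and C1qa (6907), and the lowest for 0. The 4 erythroid markers read here, Hba-a1, Hbb-b1, Alas2 and Slc4a1, mark cells that also hold Slc40a1 transcript. They were well above background in all 9 mice. Their mean log2 deviation was -0.62 to 0.93 in WT mice and -0.46 to 0.28 in hNAG-1 mice. Of the 4, 3 were higher and 1 lower in hNAG-1 mice, from -0.62 for Slc4a1 to 0.14 for Hbb-b1. Their median was 0.05, and -0.16 with slide as a block. The part of these cells in the Slc40a1 difference was not tested.

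**Figure D2:**
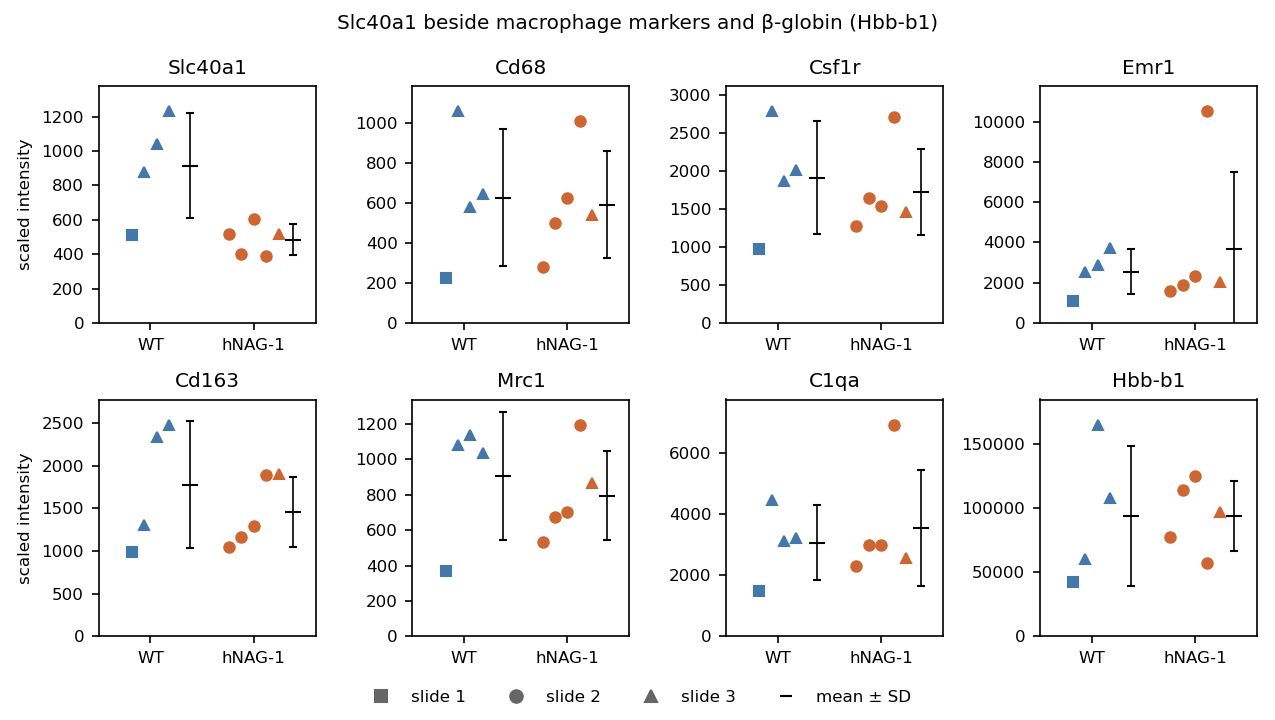
Scaled intensity (y axis, linear from 0) in each WT and hNAG-1 mouse for Slc40a1, 6 macrophage markers and the β-globin gene Hbb-b1, with the marker shape giving the slide and bars the mean ± SD. For Slc40a1, 3 of the 4 WT mice stand above all 5 hNAG-1 mice, while the genotypes overlap for the other genes.

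With the scaling described above and all 9 mice, the remaining iron genes passed neither the unadjusted limma test nor the exact permutation test at 0.05. With median scaling Ftl1 passed the exact permutation test, as given below. Of the 9 iron genes, Slc40a1 included, 6 were higher and 3 lower in hNAG-1 mice. Slc40a1 alone passed the unadjusted threshold, where 5.75% of all detected probes did. The median log2 difference of the 9 was 0.10, beside -0.03 over all 26765 detected probes. Without WT 2, 4 were higher and 5 lower (median -0.02), and with slide as a block 3 were higher (median -0.078). Tfrc, which brings in transferrin-bound iron, read 13886, 4629.7, 10915 and 10877 in WT 1 to 4. Its hNAG-1 values were 16236, 15294, 7660, 12161 and 5716. The lowest of the 9 values was WT 2 and the next was hNAG-1 5, both on slide 3. The log2 difference was 0.18 (95% interval -0.74 to 1.09), with an exact permutation p of 0.698, and it turned to -0.52 within slide 3 and to -0.16 without WT 2. Tfrc was spotted 10 times on each array, and the SD between those spots (median 0.09 on the log2 scale) stood beside an SD between mice of 0.70 in WT and 0.65 in hNAG-1.

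Ferritin stores iron in a shell of heavy and light chains. The heavy chain gene Fth1 read 292094, 198996, 269402 and 288029 in WT mice and 309352, 257179, 262519, 335721 and 238774 in hNAG-1 mice. WT 2 was again the lowest, and the other 3 WT mice lay inside the hNAG-1 range. Fth1 differed by 0.10 on the log2 scale (95% interval -0.29 to 0.50, exact permutation p = 0.524). The light chain gene Ftl1 read 26159.6, 35952, 28544 and 32990 in WT mice and 29381, 28768, 39417, 35700.5 and 39643 in hNAG-1 mice. The 2 highest values were hNAG-1 5 and hNAG-1 3, and the genotypes overlapped, with a log2 difference of 0.16 (95% interval -0.22 to 0.54, exact permutation p = 0.333). With median scaling Ftl1 differed by 0.38 (exact permutation p = 0.0397). Leaving out each mouse in turn gave 0.08 (without WT 1) to 0.24 (without WT 2).

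Slc11a2 (DMT1) carries ferrous iron out of the endosome and held the largest rise in value among the iron probes. That probe (A_52_P196476) read 531, 304, 501 and 555 in WT mice and 476, 754, 719, 612 and 491 in hNAG-1 mice. WT 2 was below all other mice, and 3 hNAG-1 mice were above all WT mice. Its log2 difference was 0.38 ± 0.23 (SE) with an exact permutation p of 0.159, and it was 0.18 without WT 2 and 0.16 with slide as a block, while the other probes of the gene gave 0.16 and -0.14. Slc11a1 (NRAMP1), which moves metal out of the phagosomes of macrophages, ran from 251 in WT 1 to 1003 in WT 2 and from 309 in hNAG-1 1 to 1178 in hNAG-1 4. Its log2 difference was -0.22 with a wide interval (-1.28 to 0.84). Of the other iron genes, the ferroxidases Cp and Heph differed by 0.00 and 0.30 and the haemochromatosis gene Hfe by 0.09, each by its brightest probe, and the second Hfe probe by -0.28.

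Among detected probes, zinc importers held the largest differences after Slc40a1, and none passed the unadjusted test. Of the 12 detected ZIP genes, 9 were higher and 3 lower in hNAG-1 mice, with a median log2 difference of 0.17. Without WT 2, 6 were higher and 6 lower, while 9 were higher with median scaling and with slide as a block. Slc39a8 (ZIP8), which imports zinc and manganese, had 3 detected probes, with log2 differences of 0.77, 0.57 and 0.56. Its probe with the largest difference (A_51_P334093) read 538, 278, 753 and 693 in WT mice and 922, 1326, 699.9, 1195 and 579 in hNAG-1 mice. The 3 hNAG-1 mice that lay above every WT mouse were all on slide 2, hNAG-1 3 and 5 lay among the WT mice, and WT 2 was lowest. The SE was 0.35, the unadjusted limma p 0.0557 and the exact permutation p 0.0794. Its unadjusted limma p was under 0.05 with normexp background correction (0.0349), with median scaling (0.0332), over the detected probes alone (0.0493) and without WT 3 (0.0369), WT 4 (0.0486) or hNAG-1 5 (0.0261). Within slide 3 the difference of this probe was 0.14, and without WT 2 it was 0.46.

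In the other direction, Slc39a4 (ZIP4), the intestinal zinc importer mutated in acrodermatitis enteropathica, had the largest fall in value among the detected importer probes. It read 773, 1377, 949 and 1003 in WT mice and 438, 469.9, 1174, 779 and 618 in hNAG-1 mice. The 3 lowest values were all hNAG-1 mice, from both slides, and hNAG-1 3 exceeded 3 of the 4 WT mice. The log2 difference was -0.63 ± 0.31 (SE), -0.82 with slide as a block, with an unadjusted limma p of 0.0721 and an exact permutation p of 0.0952. The limma p was 0.0463 with normexp background correction and 0.0101 without hNAG-1 3. With median scaling the log2 difference was -0.41 (exact permutation p = 0.302), and without WT 2 it was -0.47 (exact permutation p = 0.25). Slc39a10 (ZIP10), a plasma membrane importer, read 500.4, 341, 368 and 353 in WT mice and 558, 656, 435, 791 and 361 in hNAG-1 mice. Its 3 highest values were hNAG-1 mice of slide 2, the log2 difference was 0.48 (exact permutation p = 0.111), and hNAG-1 5 lay within the range of the WT mice of its slide, a difference of 0.03. Slc39a10 was picked for values by mouse after its values were seen.

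Other ZIP genes were read as follows. Slc39a7 (ZIP7), which releases zinc from the endoplasmic reticulum, ran from 30541 to 53014 in WT mice and from 43883 to 59607 in hNAG-1 mice, with WT 2 as the lowest and a log2 difference of 0.20. Slc39a6 (ZIP6), an oestrogen-regulated importer, ran from 5515 in WT 2 to 17304 in WT 3, a spread that took in 4 of the 5 hNAG-1 mice, and differed by 0.18. Slc39a14 (ZIP14), an importer of zinc and of iron that is not bound to transferrin, had 2 detected probes with differences of 0.18 and 0.31. Slc39a1 (ZIP1) had 2 detected probes that disagreed in sign, 0.09 for the brighter and -0.33 for the dimmer.

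**Figure D3:**
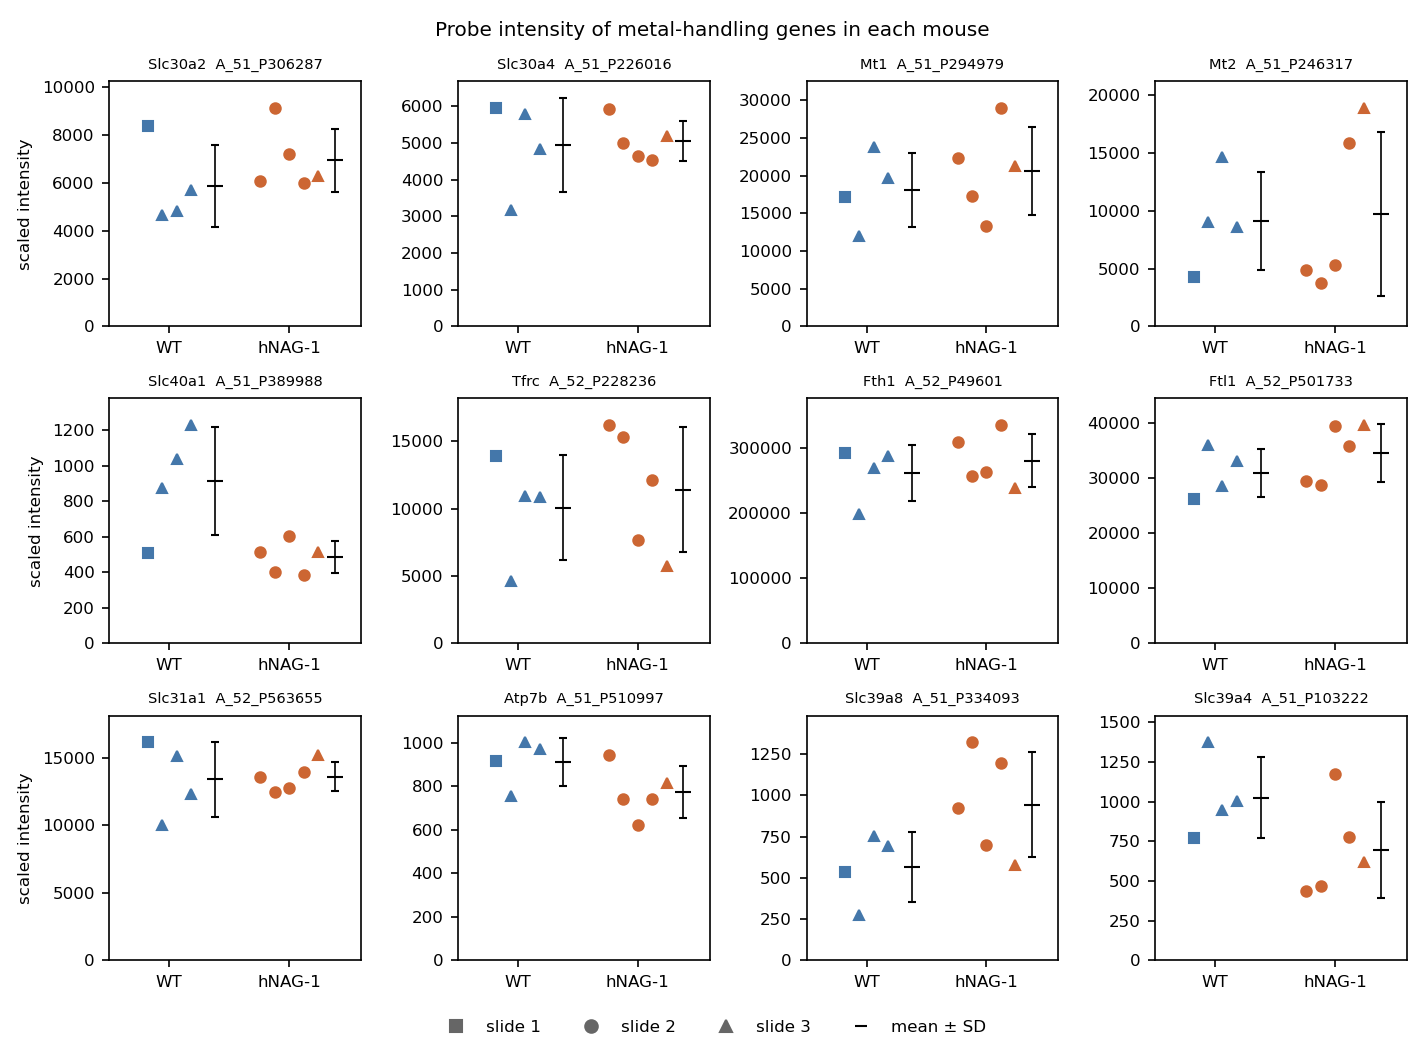
Scaled intensity (y axis, linear from 0, a separate scale for each probe) in each WT and hNAG-1 mouse for the probes of 12 metal-handling genes, with the marker shape giving the slide and bars the mean ± SD. The Slc40a1 mean is 914 in WT and 485 in hNAG-1 mice, and in every panel at least 1 mouse of a genotype lies inside the range of the other.

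Detected zinc exporters, including those that load zinc into milk, differed by -0.09 to 0.26 on the log2 scale, by the brightest probe of each. Of the 7 detected ZnT genes, 6 were higher and 1 lower in hNAG-1 mice, none at an unadjusted p under 0.05 by the brightest probe, and the median log2 difference was 0.10. Without WT 2, 3 were higher and 4 lower, and with median scaling all 7 were higher. Slc30a2 (ZnT2), which fills secretory vesicles of the mammary epithelium and whose loss in mothers lowers milk zinc, read 8358, 4671, 4812 and 5694 in WT mice. In hNAG-1 mice it read 6095, 9139, 7222, 5984 and 6273. WT 2, 3 and 4 lay below all hNAG-1 mice, and WT 1 was second only to hNAG-1 2. Slc30a2 differed by 0.26 on the log2 scale (95% interval -0.23 to 0.75, exact permutation p = 0.262), by 0.44 without WT 1, and by 0.16 without WT 2 or without hNAG-1 2. Slc30a4, the lethal milk gene, read 5965, 3163, 5799 and 4829 in WT mice and 5934, 5007, 4639.7, 4550.3 and 5184 in hNAG-1 mice. All 5 hNAG-1 mice lay within the WT range, and the log2 difference was 0.07 (95% interval -0.40 to 0.54, exact permutation p = 0.802).

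Slc30a1 (ZnT1), the exporter of the plasma membrane and an MTF-1 target, had the lowest difference among the detected exporter probes. Its brighter probe (A_51_P300572) read 370.0, 576, 663 and 686 in WT mice and 521, 625, 567, 350.2 and 611 in hNAG-1 mice. WT 1 and hNAG-1 4 were lowest, and the probe differed by -0.09 (exact permutation p = 0.627). The second probe of the gene differed by 0.11. Slc30a9, encoding a mitochondrial zinc transporter, had 3 detected probes with log2 differences of 0.45, 0.27 and 0.22. The first (A_52_P134914) read 67.4, 56.4, 87.5 and 95.5 in WT mice and 85.4, 86.7, 62.9, 134 and 185 in hNAG-1 mice. Its 2 highest values were hNAG-1 5 and 4, and hNAG-1 3 was among the lowest. Over 9 mice the exact permutation p was 0.286, and the log2 difference was 0.24 without hNAG-1 5. With slide as a block this probe differed by 1.25 with an unadjusted limma p of 0.0276, a value that rests on hNAG-1 5, while the other probes of the gene differed by 0.14 and -0.09 in that fit.

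The second of the 2 probes under the unadjusted threshold was a dim probe of Slc30a10, a transporter that exports manganese. It (A_51_P173445) read 10.7, 45.2, 15.2 and 23.9 in WT mice and 5.43, 6.48, 13.7, 13.1 and 12.7 in hNAG-1 mice. Only 2 WT readings and no hNAG-1 reading were well above background, so no fold is given. The exact permutation p was 0.0952. A second Slc30a10 probe was well above background in 1 hNAG-1 mouse only and lay in the other direction.

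Metallothioneins, the transcripts through which a change in cell zinc is usually read, differed between genotypes by less than the spread between mice. Of the 5 genes of this list, 2 were higher and 3 lower in hNAG-1 mice, with a median log2 difference of -0.03. That split depended on the setting, with 0 higher without WT 2, 4 higher with slide as a block (median 0.26) and 5 higher with median scaling. Mt1 read 17130.3, 12044, 23787 and 19664 in WT mice and 22322, 17366, 13341, 29035 and 21256 in hNAG-1 mice. The lowest value was WT 2 and the highest hNAG-1 4, and the rest were mixed. Mt1 differed by 0.18 on the log2 scale (95% interval -0.42 to 0.78, exact permutation p = 0.524). This probe too was spotted 10 times, with an SD between spots of 0.03 (median, log2 scale) against 0.41 between WT mice and 0.42 between hNAG-1 mice. A dimmer second Mt1 probe (A_52_P423810) read 397, 239, 491 and 444 in WT mice and 426, 849, 431, 388 and 640.0 in hNAG-1 mice, with a log2 difference of 0.46 (0.24 without WT 2 and 0.29 without hNAG-1 2) and an exact permutation p of 0.246.

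Mt2 varied widely between mice of the same genotype and had the widest 95% interval of the 53 detected probes. It read 4236, 9008, 14591 and 8586 in WT mice and 4864, 3712, 5303, 15812 and 18885 in hNAG-1 mice. 3 hNAG-1 mice lay near the lowest WT mouse and the other 2 above every WT mouse. The log2 difference was -0.10 with an interval from -1.35 to 1.16 (exact permutation p = 0.897), which takes in a factor of 2 in either direction. Within slide 3 the difference was 0.86. Mt3 and Mt4, metallothioneins best known from brain and from stratified epithelium, differed by 0.07 and -0.03. Mtf1, which encodes the zinc sensor, read 449, 408, 578 and 504 by its brightest probe in WT mice and 567, 429.9, 435, 429 and 375 in hNAG-1 mice. The WT mice lay within the range of the hNAG-1 mice except WT 3, and the log2 difference was -0.12 (exact permutation p = 0.429), while a second detected Mtf1 probe (A_52_P236072) differed by 0.10.

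Copper genes differed by -0.24 to 0.22 on the log2 scale, by the brightest probe of each. All 4 were detected, 2 higher and 2 lower in hNAG-1 mice, with a median log2 difference of 0.00. Slc31a1, the copper importer, read 16170.2, 10039, 15116 and 12285 in WT mice and 13552, 12488, 12721, 13951 and 15202 in hNAG-1 mice. All hNAG-1 values lay between the lowest and highest WT mouse, and the log2 difference was 0.04 (95% interval -0.34 to 0.43, exact permutation p = 0.809). Atp7b, the pump that delivers copper to the milk secretory pathway, read 917, 757, 1005 and 974 in WT mice and 946, 741, 625, 743 and 815 in hNAG-1 mice. 3 hNAG-1 mice were below every WT mouse. Atp7b differed by -0.24 on the log2 scale (95% interval -0.61 to 0.13, exact permutation p = 0.111), and by -0.027 with median scaling. Atp7a, mutated in Menkes disease, differed by -0.04 by its brightest probe. Slc31a2, a relative of the importer found on internal membranes, had 2 detected probes, with differences of 0.22 and 0.26. The latter (A_52_P32402) read 2273, 1515, 1501 and 1564 in WT mice and 1658, 2246, 2176, 2272 and 1815 in hNAG-1 mice. Outside WT 1, whose value was the highest of the 9, every WT mouse was below every hNAG-1 mouse, and the exact permutation p was 0.151.

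Across the lists, 25 of the 37 detected genes were higher and 12 lower in hNAG-1 mice, a median log2 difference of 0.10, where 45.9% of all detected probes on the array were higher and their median was -0.03. Leaving out WT 2 ended that surplus of higher values. WT 2 held the lowest of the 9 values for 22 of the 37 genes (59.5%), beside 29.2% of the 23089 probes well above background in all mice. In the mean over the 37 genes WT 2 stood at -0.31 log2 units from the average of the 9 mice, and the other 8 mice between -0.08 and 0.14. Without WT 2, 15 genes were higher and 22 lower, and the median was -0.02, beside -0.06 over all detected probes. The median fell from 0.17 to -0.01 for the zinc importers and from 0.10 to 0.00 for the exporters. The lymphocyte and epithelial marker values of WT 2 given above moved with this shift, and their part in it was not tested. Within slide 3, hNAG-1 5 lay inside the range of the 3 WT mice for 23 of the 37 genes, above it for 10 (27.0%) and below it for 4 (10.8%). Of all detected probes on the array, 37.0% lay above that range and 14.2% below it.

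**Figure D4:**
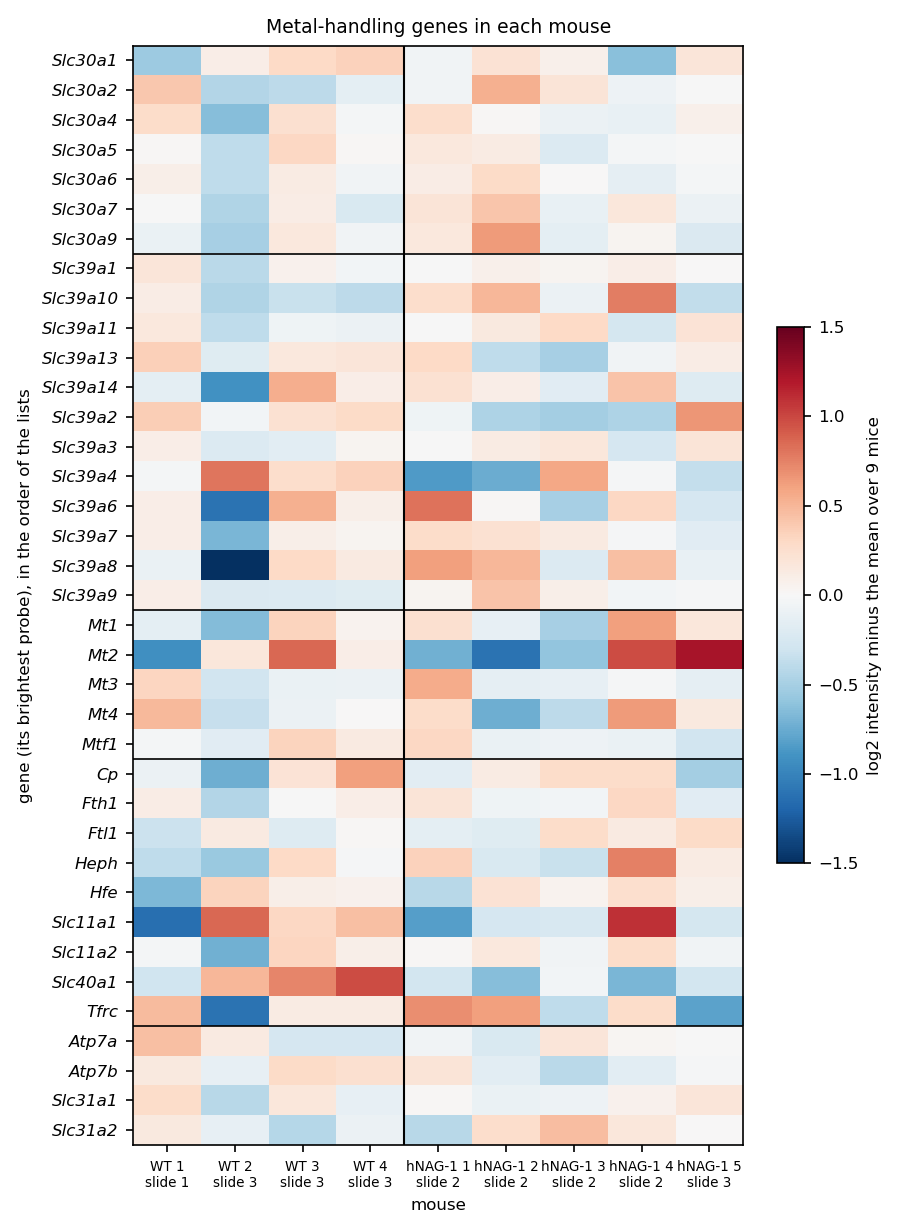
Log2 intensity of the 37 detected metal-handling genes (rows, each by its brightest probe, in the order of the lists) in each of the 9 mice (columns, with their slide), as the difference from the mean over the mice, with red above and blue below it and colours ending at 1.5. WT 2 is blue for most genes, being the lowest mouse for 22 of the 37, and the Slc40a1 row is red in 3 WT mice only.

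Pairs of genes that serve the same metal were compared across the 9 mice. Mt1 and Mt2, neighbours on chromosome 8, had a Pearson r of 0.49 (exact permutation p = 0.183) and a Spearman rho of 0.45 (exact permutation p = 0.23), and r was 0.57 without WT 2 and hNAG-1 4, the mice farthest from the Mt1 median. Fth1 and Ftl1 had an r of -0.34 (exact permutation p = 0.377) and a rho of -0.43 (exact permutation p = 0.25), with an r of -0.60 without WT 2 and hNAG-1 4. The sign of this r depended on the scaling, at 0.25 after quantile normalization, 0.33 with median scaling and 0.85 without scaling. Slc40a1 and Tfrc had an r of -0.33 (exact permutation p = 0.382) and a rho of -0.47 (exact permutation p = 0.213). Without WT 3 and WT 4 this r was -0.74 with an exact permutation p of 0.0476, not adjusted. Adjusted over the 3 pairs, no r or rho passed, with adjusted p-values by exact permutation of 0.382 for each r and 0.25 for each rho. Without scaling the exact permutation p, not adjusted, was 0.00525 for the r of Mt1 with Mt2 (0.86) and 0.00357 for that of Fth1 with Ftl1. The slides held 4 mice at most, and no correlation within a slide was computed.

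Other genes of the same pathways, which the naming rule left out, were read from lists drawn up for this comparison. Of 19 detected iron genes in this second list, 13 were higher and 6 lower in hNAG-1 mice, none at an unadjusted p under 0.05 by the brightest probe, with a median log2 difference of 0.06. Among those that carry or sense iron, transferrin (Trf) differed by 0.06, lactoferrin (Ltf) by 0.02, and the iron regulatory proteins Aco1 and Ireb2 by 0.27 and 0.11. A dim second probe of Steap3, a ferrireductase, was the single probe of the 42 on this list whose genotypes did not overlap, which 1.35% of all probes on the array did. It read 32.9, 22.4, 35.7 and 28.6 in WT mice and 16.1, 17.5, 8.79, 12.7 and 22.2 in hNAG-1 mice (exact permutation p = 0.0159, adjusted p = 0.661 by limma), while the brightest Steap3 probe differed by 0.16. This probe was well above background in 4 of the 9 mice and was picked after its values were seen. Of 10 detected copper genes, 8 were higher and 2 lower, with a median of 0.06, and the chaperones Atox1 and Ccs and the enzyme Sod1 differed by 0.03, 0.03 and 0.09. Of 6 detected zinc genes, 3 were higher and 3 lower, with a median of 0.04. The zinc-binding S100a8 and S100a9, proteins of neutrophils, were highest in hNAG-1 4, at 9269 and 73208, against 466 to 1613 and 515 to 3799 in the other mice.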

How the data were processed

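Each deposited scanner file holds 1 Cy3 array read by Agilent Feature Extraction (9.5.3.1 in the file headers). The authors deposited processed intensity values, background-subtracted and not scaled between arrays, and the deposited series table held the same values. From these, each array's non-control spots were scaled to the mean 75th percentile, spots of a probe were averaged, and log2 intensity was fitted over all 41174 probes with limma 3.58.1 in R 4.3.3, as hNAG-1 against WT in all 9 mice with no covariate, with Benjamini-Hochberg adjustment. A probe counted as detected where Feature Extraction put it well above background in all 4 WT or all 5 hNAG-1 mice. The gene's brightest probe stood for it in counts and medians. Probe positions are mm7, per the file headers. Gene names are those of the array files, and the RefSeq table (GRCm38.p6) held the accessions of 53 of the 65 probes, all with the same symbol. Values for each mouse were given for genes under the unadjusted threshold, the largest rise and fall of each list among detected probes, and 10 preset genes, and also for Slc39a10 and a Steap3 probe, picked after their values were seen. Genes and lists were chosen with earlier results of these data known. The fit was tested on simulated data. The number of arrays limits the precision, and the alternatives tried are given in the closing section.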

Additional observations from a re-analysis of the deposited data

Results flagged for a closer look

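The log2 values of 19 probes picked by the rule for values by mouse were checked for a mouse far from the rest of its genotype, as the gap to its nearest neighbour over the whole range of the group. Of 38 groups of 4 or 5 mice, 2 held such a mouse, and chance alone marks about 1 group in 20. For the Slc11a2 probe A_52_P196476, WT 2 lay below the other WT mice with a gap of 0.832 of the range (304 against 501 to 555). For the Slc31a2 probe A_52_P32402, WT 1 lay above the other WT mice with a gap of 0.901 of the range (2273 against 1501 to 1564), and the log2 difference of this probe was 0.40 without WT 1 against 0.26 with it.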

How the results depend on the processing

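Slc40a1 stayed lower in hNAG-1 mice in all 21 alternatives that gave a test, with log2 differences from -1.12 to -0.65. Slide as a block and slide 3 alone, both at -1.01, rest on the single mouse hNAG-1 5 against 3 WT mice. In the other alternatives its unadjusted p was under 0.05, by limma or, for the test of the methods, by a t-test. In these, 0 member probes passed an adjusted p of 0.05. The number of member probes with an unadjusted p under 0.05 was 2 (3.08%, beside 5.60% of all probes). It was 4 after normexp background correction (6.15% beside 2.57%), 5 with median scaling (7.69% beside 8.95%), 1 without scaling (1.54% beside 5.02%) and 5 with a replicate block (7.69% beside 13.2%). Leaving out 1 mouse gave 1 to 7, with 7 without hNAG-1 5 (10.8% beside 14.4%), 5 without WT 1 (7.69% beside 4.92%), and 1 without hNAG-1 1 (1.54% beside 6.84%) or hNAG-1 2 (1.54% beside 2.82%). Without WT 1 the unadjusted limma p was 0.0481 for Slc30a2 and 0.0410 for Slc31a2 (A_52_P32402), and Slc30a9 (A_52_P134914) had 0.0295 with quantile normalization and 0.0349 with median scaling. The dim Slc30a10 probe lost its call in 12 alternatives, among them normexp (0.414), quantile normalization (0.193) and the runs without WT 2 (0.115) or WT 4 (0.0839). The correlations of deviations between mice of the same number in both groups ran from -0.31 to 0.28, with 3 of 4 below 0. They were not set against mice of different number, so they cannot decide whether the numbers pair the mice. Median scaling raised the median log2 difference of all detected probes by 0.22, and gave 0.22 for the copper genes and 0.32 for all member genes. Without scaling, r was 0.86 for Mt1 with Mt2 (exact permutation p = 0.00525) and 0.85 for Fth1 with Ftl1 (exact permutation p = 0.00357), and the latter was 0.25 after quantile normalization and 0.33 with median scaling.

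Slide as a block turned the sign of 11 of the 37 detected genes, none of them past the unadjusted threshold. Among the 19 probes picked by the rule for values by mouse, those of 8 genes with no call turned in some alternatives, and the cause was not tested. With slide as a block, which gives the same estimates as slide 3 alone, the log2 difference was 0.86 for Mt2, -0.52 for Tfrc and -0.061 for Fth1. Median scaling gave 0.12 for Mt2, 0.13 for Slc30a1 and 0.10 for Mtf1. No scaling gave -0.075 for Slc30a4, -0.043 for Fth1 and -0.11 for Slc31a1. For Slc31a1, quantile normalization gave -0.046 and the replicate block -0.0014. Leaving out 1 mouse gave -0.13 to 0.18 for Slc30a4, -0.0015 to 0.33 for Mt1, -0.42 to 0.18 for Mt2, -0.16 to 0.40 for Tfrc, -0.023 to 0.16 for Fth1, -0.091 to 0.14 for Slc31a1 and -0.29 to 0.055 for Slc30a1. Signal over background limited 6 member probes, which exceeded it in some mice only, and 6 more, which did so in none.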
